A study of Mus musculus with 2 samples.

Results

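The genes described here are 4 chemokine ligands made by lymphocytes, Ccl3, Ccl4, Ccl5 and Xcl1, and Xcr1, the receptor of the Xcl1 product. They were picked by name (Ccl3 is ENSMUSG00000000982, Ccl4 ENSMUSG00000018930, Ccl5 ENSMUSG00000035042, Xcl1 ENSMUSG00000026573 and Xcr1 ENSMUSG00000060509), as 5 of the 33696 genes counted. They were followed through every cell type of 2 single-cell RNA libraries of mouse immune cells. The KO library came from Alb-Cre Bicd2fl/fl mice, in which Cre under the albumin promoter cuts the floxed Bicd2 gene in hepatocytes, and the WT library from Alb-WT Bicd2fl/fl mice, which carry the same floxed alleles and no Cre. All mice had received an S-100 liver extract in complete Freund's adjuvant by the intraperitoneal route, 2.5 mg a week for 3 weeks, a model of autoimmune hepatitis (AIH). The design text describes immune cells prepared out of liver by a Percoll gradient and red-cell lysis, and a live-cell sort before pooled capture with 10x Genomics 3' chemistry. The number of mice pooled in each library is not given in the sources used here. The sample labels call the cells peritoneal and give HFD as treatment, which goes against the design text, and this could not be settled. Both libraries held a cluster led by hepatocyte genes such as Alb and Ttr, with 102 KO and 44 WT cells. Bicd2 itself had 560 molecules in KO cells (13.3 CPM, the count scaled to 1000000) and 1288 in WT cells (19.8 CPM). In the hepatocyte-led cluster it had 4 in the KO and 0 in the WT cells, which runs against the genotype labels on very few counts. Counts read at the 3' end, mostly of immune cells, do not check the deletion.

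CCL3, CCL4 and CCL5 are small secreted proteins that draw T cells, natural killer (NK) cells, monocytes and other leukocytes to a site, with CCR1 a receptor of CCL3 and CCL5, and effector T and NK cells are known sources of all of them. XCL1 acts through XCR1, which in mice marks the conventional dendritic cells that are best known for cross-presenting antigen to CD8 T cells (cDC1). In the liver, NK cells, type 1 innate lymphoid cells (ILC1), innate-like T cells and resident macrophages meet these signals close to hepatocytes.

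The rule of at least 200 genes and at most 20% mitochondrial molecules kept 17675 of 27033 KO barcodes and 20167 of 22197 WT barcodes, and removal of marked doublets left 15619 KO and 17080 WT cells. These held 42128772 molecules (UMIs, unique molecular identifiers) in KO and 65156031 in WT, with medians of 2003 UMIs per KO cell and 2793 per WT cell. Haemoglobin genes took 22.9% of the UMIs of kept KO cells and 11.1% of those of kept WT cells. The libraries shared 177 barcodes, 70 of them among kept cells. With 1 library per group there is no replicate, so no test and no p-value is given. All intervals are at 95% and account for nothing but counting error, and any difference below is between these libraries, where the genotype and the library cannot be told apart.

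Over all kept cells the 4 ligands were lower in KO, and Xcr1 was not. Levels are in CPM, the UMIs of a gene scaled to 1000000 UMIs of the cells in question. Ccl3 had 2.45 CPM in KO (103 UMIs) and 17.0 CPM in WT (1106 UMIs), 6.94-fold lower in KO (interval 5.67 to 8.58). Ccl4 had 14.5 CPM in KO and 88.3 CPM in WT, 6.08-fold lower (5.59 to 6.62). Ccl5 had 469 CPM in KO and 1175 CPM in WT, 2.51-fold lower (2.47 to 2.55). The gap was thus wider for Ccl3 and Ccl4 than for Ccl5 in these libraries, and the interval of Ccl5 does not meet theirs. These intervals do not count the spread between cells. The top 10 cells held 23.3% of KO and 29.0% of WT Ccl3 UMIs, and 23.9% of KO and 28.4% of WT Ccl4 UMIs. Xcl1 had 43.9 CPM in KO and 155 CPM in WT, 3.53-fold lower (3.36 to 3.71). Xcr1 had 15.8 CPM in KO (665 UMIs) and 16.2 CPM in WT (1058 UMIs), and its KO over WT ratio of 0.972 had an interval (0.881 to 1.07) that included 1. Its log2 ratio was -0.04, and it was 0.02 with TMM and 0.03 with DESeq2 scaling and 0.30 without cells over 10% haemoglobin.

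**Figure D1:**
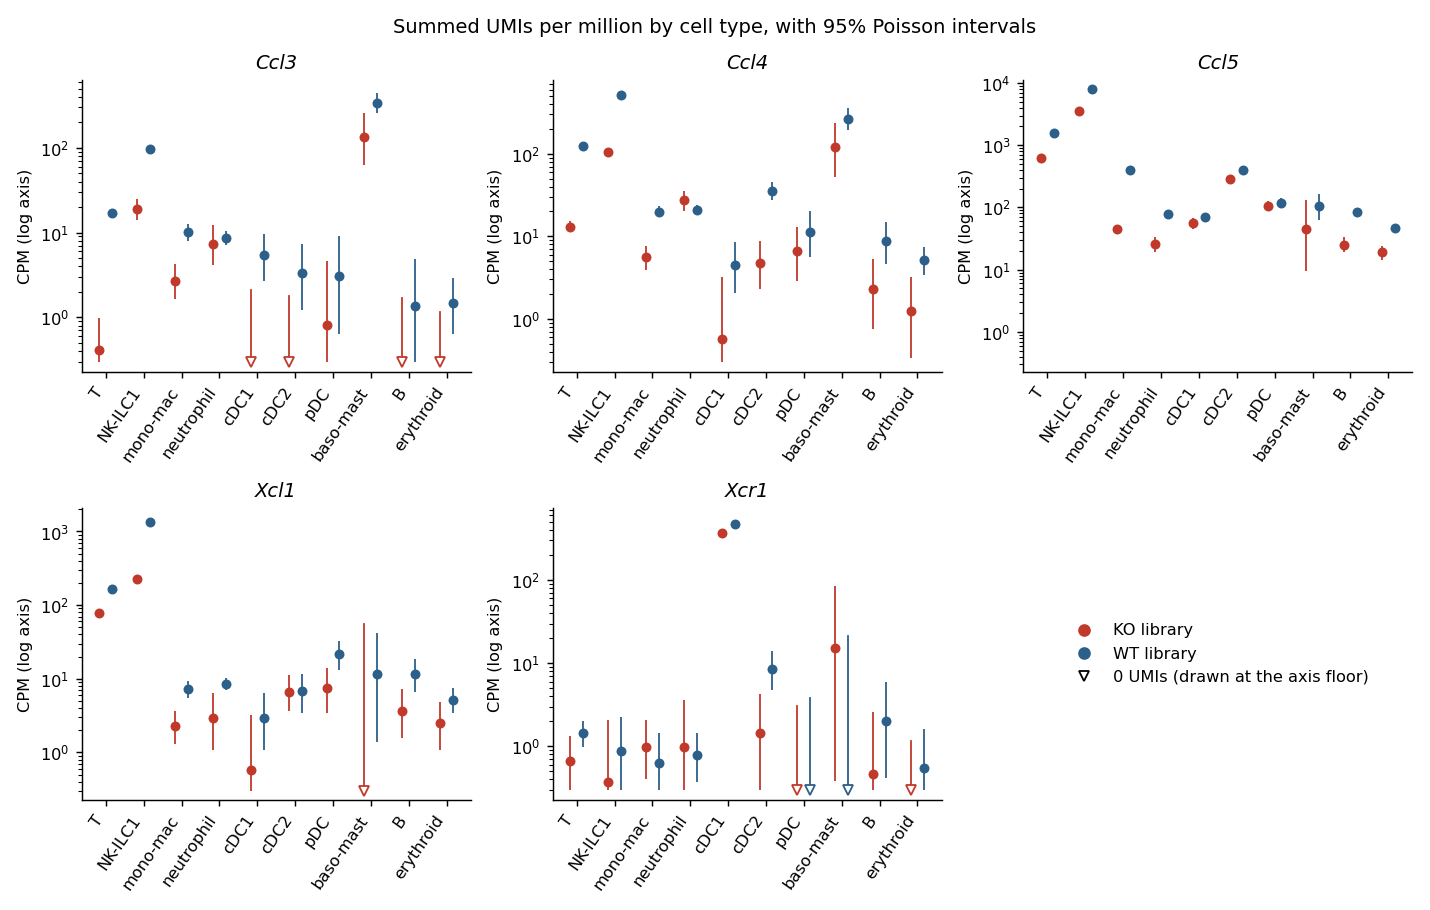
Level of each gene by cell type in CPM on a log axis, KO (red) left of WT (blue), with 95% Poisson intervals; open triangles mark 0 UMIs and are drawn at the floor of the axis, where intervals are also clipped. Each ligand lies lower in KO than in WT in T-like and NK-ILC1-like cells, and Ccl5 and Xcl1 stand highest in these. Ccl3 stands highest in basophil-mast-like cells in both libraries, and Xcr1 in cDC1-like cells.

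NK-ILC1-like and T-like cells together held most UMIs of every ligand in both libraries. NK-ILC1-like cells, a class that does not part NK cells from ILC1, made up 8.13% of KO and 7.51% of WT kept cells and held 48.3% of KO and 47.6% of WT Ccl5 UMIs. T-like cells, 33.9% of KO and 34.9% of WT cells, held 37.2% of KO and 44.3% of WT Ccl5 UMIs. For Xcl1 the order of the sources was not the same in the libraries. T-like cells held 50.4% of KO and 35.3% of WT UMIs, and NK-ILC1-like cells 33.2% of KO and 61.0% of WT UMIs. Innate-like T-like cells (cluster 0, led by Il4 and Zbtb16, the gene of the innate-like T-cell factor PLZF) alone held 38.8% of KO and 4.60% of WT Xcl1 UMIs, and they were also 3182 KO cells against 629 WT cells. A further 10.7% of KO and 0.317% of WT Xcl1 UMIs lay in an unnamed cluster of 1080 KO and 50 WT cells that carried the same leading genes together with haemoglobin. For Ccl4, NK-ILC1-like cells held 46.2% of KO and 41.6% of WT UMIs, and T-like cells 25.7% of KO and 47.0% of WT UMIs. Ccl3 had the widest spread of sources. NK-ILC1-like cells held 49.5% of KO and 40.2% of WT UMIs, and T-like cells 4.85% of KO and 33.1% of WT UMIs. The rest of Ccl3 was mostly myeloid. Monocytes and macrophages held 18.4% of KO and 7.32% of WT UMIs, neutrophil-like cells 14.6% of KO and 10.1% of WT UMIs, and basophil-mast-like cells 8.74% of KO and 5.34% of WT UMIs.

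**Figure D2:**
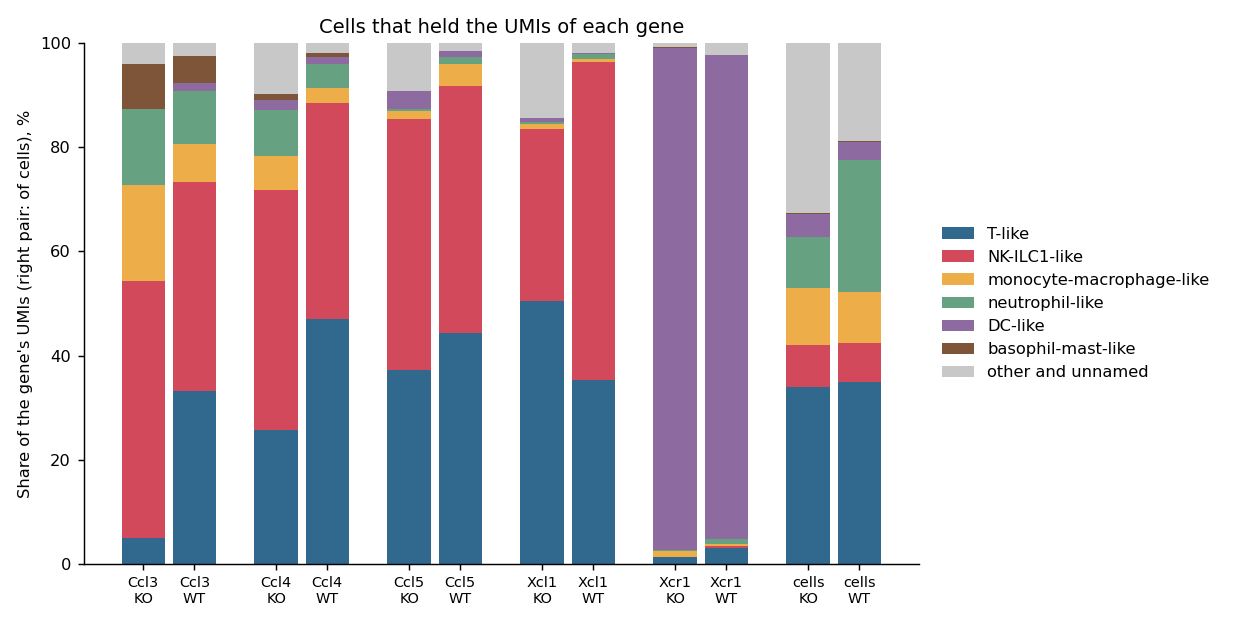
Share of each gene's UMIs (percent, stacked bars) by cell type in KO (left of each pair) and WT, with the share of kept cells as the right pair. NK-ILC1-like cells, 8.13% of KO and 7.51% of WT cells, hold between 33.2% and 61.0% of the UMIs of each ligand, and dendritic (DC-like) cells hold most Xcr1 UMIs, of which cDC1-like cells alone hold 95.9% in KO and 91.7% in WT.

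Ccl5, a chemokine stored and secreted by effector and memory lymphocytes, was found in most NK-ILC1-like cells of both libraries and was lower in KO. It had 3560 CPM in 1270 KO cells and 7903 CPM in 1282 WT cells of this type, 2.22-fold lower in KO (2.17 to 2.27). With every cell thinned to 1000 UMIs, 84.6% of KO and 87.2% of WT NK-ILC1-like cells had a Ccl5 UMI (unthinned, 86.9% of KO and 90.3% of WT cells), and at 500 UMIs the shares were 69.1% in KO and 74.1% in WT. At these levels most cells are expected to show a Ccl5 UMI, so the shares say little about the level. The thinned share was 2.10% in KO and 7.16% in WT B-like cells, which are not a known source, at median depths of 1471 UMIs (KO) and 2069.5 UMIs (WT) against 1669.5 and 2783.5 in NK-ILC1-like cells. An estimate of free RNA from neutrophil transcripts in B-like cells gave 84.8% of KO and 90.0% of WT B-like Ccl5 UMIs as free RNA, and 0.463% of KO and 0.604% of WT NK-ILC1-like ones. In mature NK-like cells (cluster 5, led by Klra8, Gzma and Prf1) Ccl5 had 4176 CPM in KO and 9885 CPM in WT, and in the NK-ILC1-like cluster 14 (led by Gzmc and Cd200r2) 2210 CPM in KO and 4710 CPM in WT. The fold was much the same in these clusters, 2.37 and 2.13, in both cases lower in KO. The call of 2-fold in all NK-ILC1-like cells was narrow: the log2 ratio was -1.15, and it was -0.96 with TMM scaling, -0.95 with DESeq2 scaling, at resolution 2 of the clustering or without sub-clusters led by genes of other cells, -0.90 without cells over 10% haemoglobin and -0.89 with haemoglobin UMIs out of the totals.

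In T-like cells Ccl5 had 612 CPM in 5301 KO cells and 1565 CPM in 5966 WT cells, 2.56-fold lower in KO (2.49 to 2.62). After thinning, 29.2% of KO and 52.5% of WT T-like cells had a Ccl5 UMI (unthinned 39.0% and 67.1%; median depths 1886 and 2734.5 UMIs). Different clusters held most T-like cells, the innate-like cluster 0 in KO (3182 cells) and the CD4 effector cluster 2 in WT (76 KO and 3198 WT cells), so that the whole T-like ratio sets different T cells side by side. Within these clusters the gap was smaller. Ccl5 was 1.40-fold lower in KO in cluster 0 (612 CPM in KO, 857 CPM in WT) and 1.83-fold lower in cluster 2 (983 CPM in KO, 1801 CPM in WT). It was wider in the Cd8a-led cluster 7, named naive T-like, with 1117 CPM in KO and 3292 CPM in WT (2.95-fold, 2.81 to 3.097), and in regulatory T-like cells, with 230 CPM in KO and 805 CPM in WT (3.50-fold). In the Foxp3-led sub-cluster of T-like cells (152 KO and 338 WT cells), which carried regulatory T markers, it was narrower, with 529 CPM in KO and 674 CPM in WT (1.275-fold lower, ratio 0.663 to 0.923). Finer sub-clusters split CD8 cells by kind. In a naive sub-cluster of T-like cells (led by Prss12, Dapl1 and Cd8b1, 671 KO and 250 WT cells) Ccl5 had 674 CPM in KO and 901 CPM in WT, and in the Klra6-, Cd8a- and Eomes-led effector sub-cluster (81 KO and 396 WT cells) 3183 CPM in KO and 3977 CPM in WT. Inside each of these sub-clusters the Ccl5 levels lay much closer than over cluster 7. With T-like sub-clusters weighted by their mean share in both libraries, the log2 KO over WT ratio of Ccl5 was -0.32, against -1.35 unweighted. The weighting covered only the 12 sub-clusters with at least 20 cells of each library, 4058 KO and 2770 WT cells. Among those left out were an Arnt2-led sub-cluster (6 KO and 1914 WT cells), with 38.1% of WT T-like Ccl5 UMIs, and a Klrb1c- and Glis3-led one (1221 KO and 14 WT cells). The weighted ratio is thus not that of the whole class. Ccl5 was below WT in 7 of the 7 T-like sub-clusters where both libraries had at least 50 cells, and in 21 of 22 clusters of any type with that many, with intervals below a ratio of 1 in 19 of them. Some of these clusters held Ccl5 mostly as free RNA by the estimate. In the neutrophil-like cluster 1 it took 122% of KO and 111% of WT Ccl5 UMIs, and in the B-like cluster 4 84.8% and 90.0%. The count of clusters is therefore not a count of cell types with lower expression of their own.

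**Figure D3:**
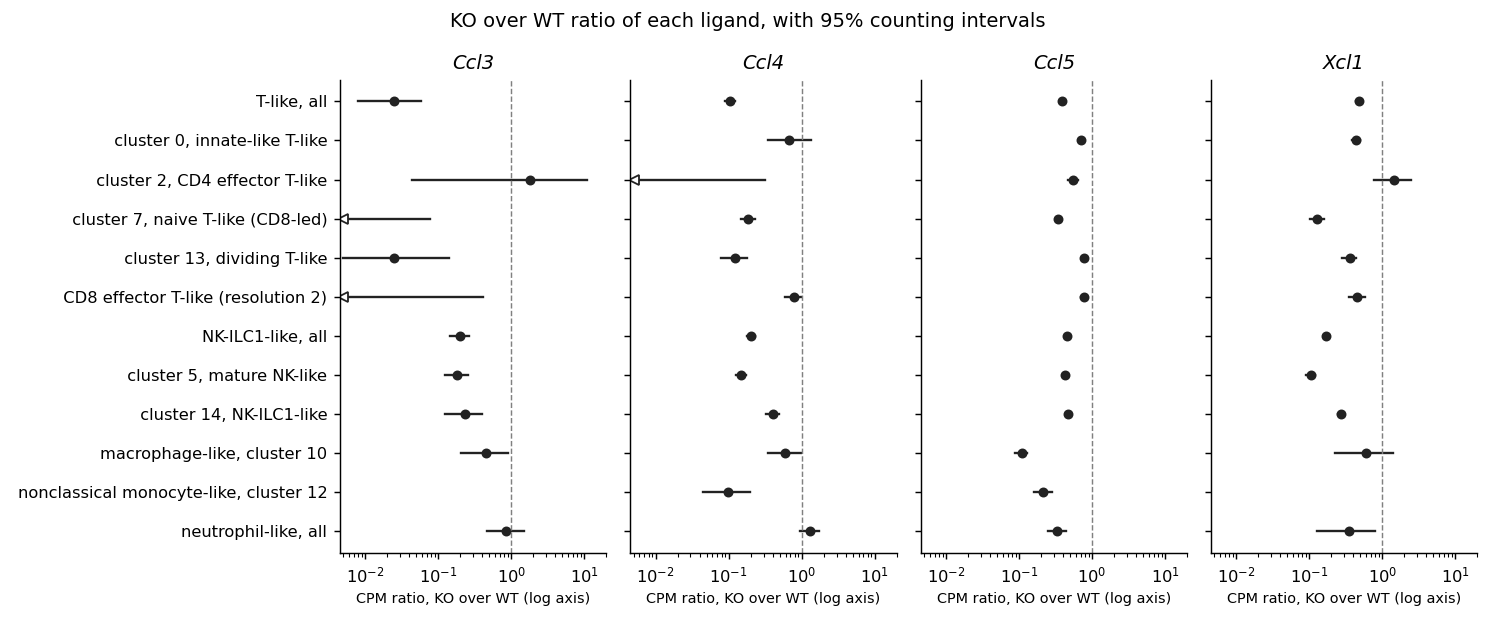
KO over WT ratio of CPM on a log axis for each ligand by cell type and cluster, with 95% conditional binomial intervals clipped at the edge of the axis; a dashed line stands at 1, open triangles mark 0 KO UMIs, and cell types with under 20 UMIs of the gene are left out. Ratios over all T-like and all NK-ILC1-like cells lie below 1 for each ligand, and those of Ccl3 and Ccl4 in neutrophil-like cells have intervals that cross 1.

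Ccl3 and Ccl4, whose products are closely related, are neighbours on mouse chromosome 11, where Ccl5 lies as well. The spans of their gene models overlap in RefSeq's GRCm38.p6 annotation, which is not the mm39 build of the counts. Strand and exons were not compared, and how reads were split between the 2 genes was not examined. In NK-ILC1-like cells Ccl3 had 19.1 CPM in KO (51 UMIs) and 96.5 CPM in WT (445 UMIs), 5.07-fold lower in KO (3.79 to 6.91). Ccl4 had 106 CPM in KO (283 UMIs) and 520 CPM in WT (2395 UMIs), 4.91-fold lower (4.34 to 5.58). Few cells held these UMIs. For Ccl3, 18 of 1270 KO and 20 of 1282 WT cells held 50%, and for Ccl4, 37 KO and 18 WT cells. The folds of these neighbouring genes were alike in NK-ILC1-like cells and both above that of Ccl5. After thinning, 1.95% of KO and 6.16% of WT NK-ILC1-like cells had a Ccl3 UMI (unthinned 3.39% and 13.8%), and 8.18% of KO and 16.7% of WT cells a Ccl4 UMI (unthinned 13.8% and 28.7%). Thinned B-like cells had none for Ccl3 in either library, which at that depth allows up to 0.299% of KO and 0.550% of WT cells with a UMI (unthinned, 0% in KO and 0.308% in WT), and 0.200% in KO and 0.734% in WT for Ccl4.

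In T-like cells Ccl3 was close to absent from the KO library, with 5 UMIs in 5301 cells (0.417 CPM), against 366 UMIs in 5966 WT cells (16.9 CPM), 40.5-fold lower with a wide interval (17.2 to 126). Ccl4 had 13.1 CPM in KO (157 UMIs) and 125 CPM in WT (2703 UMIs), 9.53-fold lower (8.11 to 11.3). A few cells set the WT values. Of the 366 WT Ccl3 UMIs, 166 were in 1 cell and 50% were in 3 cells. For Ccl4, 6 of 5301 KO cells held 50% of the UMIs, the highest with 24, and 10 of 5966 WT cells, the highest with 586. A sub-cluster of dividing cells within the T-like cells, 7 KO and 153 WT cells, carried all 7 of the listed mature NK markers and was led by Klra4, Ncr1 and Gzma. It held 68.9% of WT T-like Ccl3 UMIs, 47.0% of Ccl4 UMIs, 37.1% of Xcl1 UMIs and 8.75% of Ccl5 UMIs. Another of 53 KO and 36 WT cells, led by the early response genes Egr3, Nr4a3 and Egr1 and carrying B-cell markers, had 177 CPM of Ccl4 in KO and 7320 CPM in WT and held 21.8% of the WT T-like Ccl4 UMIs. The levels of the whole T-like class therefore include cells that its name does not cover.

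With 5 T-like sub-clusters led by NK, neutrophil or haemoglobin genes or carrying B-cell markers left out, a step chosen after seeing the data, 4840 KO and 4626 WT cells remained. They include a Klrb1c- and Glis3-led sub-cluster with 5 of 7 NK-ILC1 markers (1221 KO and 14 WT cells) and another with 4 of 11 neutrophil markers (42 KO and 124 WT cells), which were kept. Among these Ccl4 had 11.9 CPM in KO and 38.9 CPM in WT, 3.28-fold lower (2.71 to 4.00), and Ccl3 had 2 UMIs in KO and 95 in WT, a 26.9-fold gap with an interval of 7.26 to 226. Ccl5 had 639 CPM in KO and 1504 CPM in WT, 2.35-fold lower (2.29 to 2.42), and Xcl1 had 82.0 CPM in KO and 111 CPM in WT, 1.35-fold lower (1.25 to 1.47). All 4 ligands kept their direction, and Xcl1 was then no longer 2-fold lower, as also without cells over 10% haemoglobin (log2 ratio -0.86) and at resolution 2 (-0.35), against -1.07. The same step in NK-ILC1-like cells, which left 955 KO and 864 WT cells, gave folds of 3.80 for Ccl3, 4.29 for Ccl4, 1.94 for Ccl5 and 4.97 for Xcl1, all lower in KO. Neutrophil markers (11 of 11 detected in both) summed to 554 CPM in KO and 3481 CPM in WT T-like cells, and erythroid markers (7 of 7) to 87816 CPM in KO and 31723 CPM in WT; in NK-ILC1-like cells erythroid markers summed to 204152 CPM in KO and 44406 CPM in WT. In NK-ILC1-like cells the neutrophil markers (10 of 11 in KO, 11 of 11 in WT) summed to 460.5 CPM in KO and 3514 CPM in WT. The part of neutrophil transcripts in the ligand ratios was not tested.

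**Figure D4:**
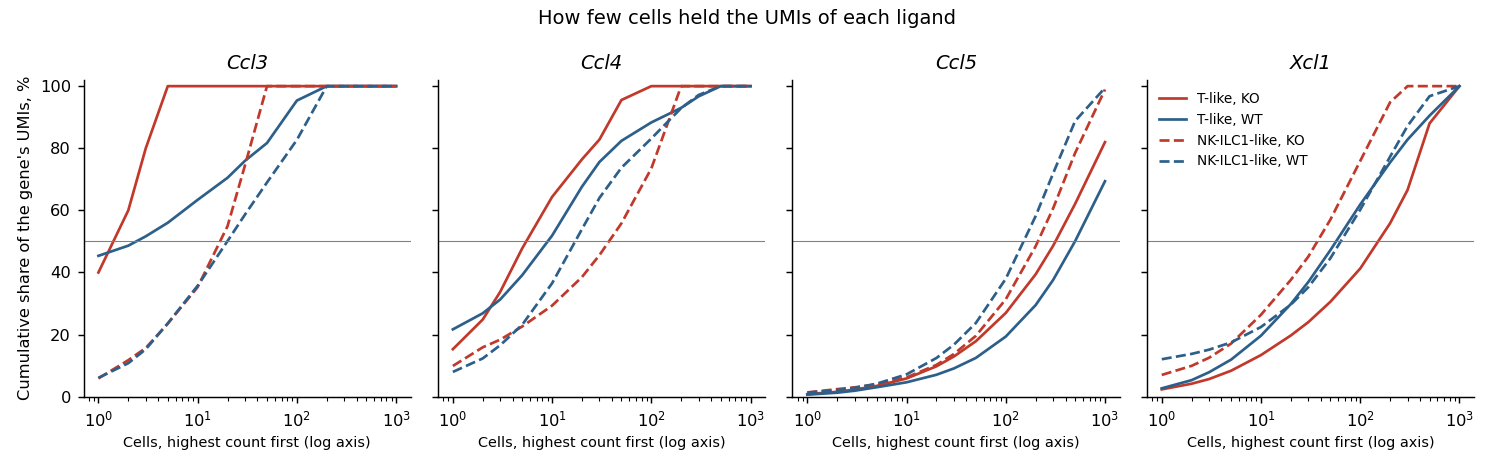
Cumulative share of a ligand's UMIs (percent) against the number of cells (log axis) ranked by their count, for T-like and NK-ILC1-like cells of KO (red) and WT (blue), with a grey line at 50%. In WT, 10 T-like cells hold 50% of the Ccl4 UMIs and 499 hold 50% of the Ccl5 UMIs.

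Within the T cells the gap in Ccl3 and Ccl4 was of different size in different clusters, a difference that was not tested. In the Cd8a-led cluster 7 (748 KO and 645 WT cells) Ccl3 had 0 UMIs in KO and 60 UMIs in WT, and Ccl4 had 49.9 CPM in KO and 269 CPM in WT, 5.39-fold lower (4.32 to 6.79). In the naive CD8 sub-cluster of T-like cells Ccl4 had 10.5 CPM in KO and 8.64 CPM in WT (17 and 7 UMIs). The Klra6-, Cd8a- and Eomes-led effector sub-cluster had 218 CPM of Ccl4 in KO and 243 CPM in WT. Both intervals included a ratio of 1, so the Ccl4 gap of cluster 7 was not found inside either sub-cluster. In CD4 effector T-like cells Ccl4 had 0 UMIs in 76 KO cells and 625 UMIs in 3198 WT cells (64.3 CPM). In innate-like T-like cells it was low in both, at 5.21 CPM in KO and 7.83 CPM in WT, and the ratio of 0.665 had an interval of 0.346 to 1.35. At a finer resolution of clustering, CD8 effector T-like cells (103 KO and 397 WT) had 318 CPM of Ccl4 in KO and 412 CPM in WT, 1.295-fold lower (1.02 to 1.67), whereas Ccl3 had 0 UMIs in KO and 59 UMIs in WT. So among CD8 effector T-like cells the Ccl4 levels lay close together while Ccl3 UMIs were found in the WT library alone, where a count of 0 in KO leaves a ratio of up to 0.404. In the 7 T-like sub-clusters compared, Ccl4 was below WT in 5 and above WT in 2, with a median log2 ratio of -0.16. The interval lay below a ratio of 1 in the Foxp3-led sub-cluster alone and above 1 in an Ffar2-led one alone. The log2 ratio of Ccl4 weighted over the 12 sub-clusters with at least 20 cells of each library was -1.45, against -3.16 over all T-like cells.

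In the WT library Ccl3 and Ccl4 were often carried by the same cells, while KO held few cells with Ccl3. After thinning, 34 of 66 WT NK-ILC1-like cells with Ccl3 also had Ccl4, against 16.7% of all such cells, and 4 of 20 in KO, against 8.18%. Within KO the counts were 1 of 14 in cluster 5, against 8.005% of its cells, and 3 of 6 in cluster 14, against 8.62%. In WT T-like cells 20 of 36 with Ccl3 also had Ccl4, against 3.25% of all. Nearly all NK-ILC1-like cells with Ccl4 had Ccl5 too, 92.9% in KO and 94.97% in WT, close to the share of Ccl5 in all of them. The 10 WT T-like cells with most Ccl4 held 57 to 586 UMIs each (median 91.5), 7 of them with Ccl3, 10 with Ccl5, 5 with Xcl1, 7 with Ifng, the interferon gamma gene, 6 with the T-cell gene Cd3e and 10 with the neutrophil gene S100a8. The 10 KO cells held 3 to 24 (median 9), 0 of them with Ccl3, 7 with Ccl5, 8 with Xcl1, 4 with Ifng, 9 with Cd3e and 3 with S100a8. The WT cells lay in the dividing NK-marked sub-cluster (5 cells), the early response sub-cluster (4) and a Klra6- and Cd8a-led sub-cluster (1).

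The 250 bases before the start of Ccl3 are shown because Ccl3 had the widest KO to WT gap in T-like cells, and those of Xcl1 because its gap was wider in NK-ILC1-like than in T-like cells; capitals mark matches to core motifs of factor families known in effector lymphocytes. Sequences come from RefSeq (GRCm38.p6, minus strand, 5' to 3'), whose promoter table used here had windows for 3 of the 5 genes: Ccl3 at chr11:83649379-83649628 and Xcl1 at chr1:164935523-164935772.
Ccl3: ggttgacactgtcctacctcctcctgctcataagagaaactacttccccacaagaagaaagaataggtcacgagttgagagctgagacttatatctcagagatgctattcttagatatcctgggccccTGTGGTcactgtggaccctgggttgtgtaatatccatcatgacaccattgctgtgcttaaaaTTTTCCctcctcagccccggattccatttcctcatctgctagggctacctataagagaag
Xcl1: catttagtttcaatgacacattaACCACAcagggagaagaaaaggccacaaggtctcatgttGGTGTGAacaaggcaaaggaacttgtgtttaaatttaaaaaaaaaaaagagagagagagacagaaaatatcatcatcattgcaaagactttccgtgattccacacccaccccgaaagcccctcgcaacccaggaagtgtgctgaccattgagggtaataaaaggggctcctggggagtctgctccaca
Searched on both strands were Runx (TGTGGT), T-box (GGTGTGA), NFAT (GGAAAA), AP-1 (TGANTCA) and an IRF pair (GAAA, any 2 bases, GAAA). Ccl3 had 1 Runx match on the same strand, at bases 122 to 117 before the start, and 1 NFAT match on the opposite strand, at bases 60 to 55. Xcl1 had 1 Runx match on the opposite strand, at bases 227 to 222, and 1 T-box match on the same strand, which begins at base 188. Runx is in 14.1% of all 32851 such windows, NFAT in 20.4%, T-box in 3.33%, AP-1 in 6.75% and the IRF pair in 2.98%. The window of Xcr1 held none of the 5, and no matches overlapped. These matches are letters in a window and show no binding.

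Xcl1, whose product is the ligand of XCR1, was lower in KO in NK-ILC1-like cells by a fold like those of Ccl3 and Ccl4, with overlapping intervals. It had 229 CPM in KO (614 UMIs) and 1337 CPM in WT (6163 UMIs), 5.83-fold lower in KO (5.36 to 6.34). Of the WT UMIs 743 were in 1 cell, and the highest KO cell had 43. In KO 38 cells and in WT 65 cells held 50% of the Xcl1 UMIs, a spread that the interval does not count. After thinning, 12.7% of KO and 42.2% of WT cells of this type had an Xcl1 UMI (unthinned, 18.3% of KO and 54.1% of WT cells; B-like cells, 0.0998% in KO and 1.28% in WT), so for this gene fewer cells carried it in KO. In mature NK-like cells Xcl1 had 108 CPM in KO and 1030 CPM in WT, 9.52-fold lower (8.24 to 11.04), with thinned shares of 5.97% in KO and 31.6% in WT. In the NK-ILC1-like cluster 14 it had 495 CPM in KO and 1831 CPM in WT, 3.70-fold lower (3.34 to 4.11), with shares of 29.7% in KO and 57.1% in WT. Cluster 14 stood above cluster 5 in both libraries, and the intervals of the 2 folds do not meet, though they leave out the spread between cells. Finer sub-clusters of NK-ILC1-like cells were mostly of 1 library, with none of the 10 holding 50 cells of each. Over the 4 that had at least 20 cells of each, which leave 1206 KO and only 129 WT cells and of which 2 are rich in haemoglobin, the weighted log2 ratio of Xcl1 was -0.25, against -2.54 for all, and that of Ccl3 was -1.33, against -2.28. At resolution 2, mature NK-like clusters included 1 of 891 KO and 274 WT cells and 1 of 20 KO and 445 WT. Xcl1 had 62.5 CPM in KO and 123 CPM in WT in a mature NK-like sub-cluster (663 KO, 28 WT cells). Its ratio of 0.508 had an interval (0.207 to 1.62) that included 1. An unnamed one led by Sh2d1b2 (10 KO, 333 WT cells) held 43.4% of the WT UMIs, with 1865 CPM in KO and 1679 CPM in WT. The 9.52-fold gap thus sets different cells side by side.

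In T-like cells Xcl1 had 77.8 CPM in KO (933 UMIs) and 165 CPM in WT (3568 UMIs), 2.12-fold lower (1.97 to 2.28), and the thinned shares were 5.76% in KO and 7.41% in WT (unthinned 11.54% in KO and 14.1% in WT). In the Cd8a-led cluster 7 it had 55.9 CPM in KO and 438 CPM in WT (7.83-fold lower, 6.39 to 9.69), and in regulatory T-like cells 1 UMI in KO and 31 in WT (ratio 0.108, 0.00264 to 0.647). Innate-like T-like cells had 113 CPM in KO and 260 CPM in WT, 2.29-fold lower (2.04 to 2.58). In CD4 effector T-like cells the values were 71.4 CPM in KO (13 UMIs) and 49.5 CPM in WT, with a ratio of 1.44 and an interval (0.763 to 2.49) that included 1; at resolution 2 the ratio was 2.04 (1.14 to 3.41; 15 KO UMIs). At that resolution, CD8 effector T-like cells had 301 CPM in KO and 666 CPM in WT, 2.21-fold lower. In the effector sub-cluster led by Klra6, Cd8a and Eomes it had 344 CPM in KO and 606 CPM in WT, and in the naive CD8 one 22.3 CPM in KO and 35.8 CPM in WT. Xcl1 was below WT in 5 and above WT in 2 of the 7 T-like sub-clusters compared. The log2 ratio weighted over the 12 sub-clusters with at least 20 cells of each library was -0.86, against -1.07 over all T-like cells.

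Among all genes with at least 20 UMIs summed over both libraries, 8.24% of 13623 in T-like cells and 8.09% of 10846 in NK-ILC1-like cells were at least 2-fold lower in KO, on the scale of log2(CPM + 1). All 4 ligands were among them in both cell types. In monocyte-macrophage-like cells the share was 4.56% of 11872 genes, and the 4 ligands were again among them, while Xcr1 had too few UMIs to count. Of the Xcl1 UMIs in these cells (16 in KO, 58 in WT) the free RNA estimate took 34.0% in KO and 63.0% in WT. In neutrophil-like cells the share of genes was 11.5% of 10886, with Ccl5 and Xcl1 among them and Ccl3 and Ccl4 not. Of the Xcl1 UMIs there (6 in KO, 109 in WT) the free RNA estimate took 80.6% in KO and 86.2% in WT. In cDC1-like cells it was 2.79% of 9693 genes, with neither Ccl5 nor Xcr1 among them. The median log2 ratio of all genes was -0.08 in T-like and -0.19 in NK-ILC1-like cells.

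Ccl5 was also lower in KO in monocytes and macrophages. Monocyte-macrophage-like cells had 44.5 CPM of Ccl5 in KO (1706 cells) and 393 CPM in WT (1676 cells), 8.82-fold lower in KO (7.85 to 9.93). In KO 8 cells held 50% of these UMIs, the highest with 56, and in WT 27 cells, the highest with 358. Most of the WT level came from cluster 10 (named macrophage-like, led by the complement genes C1qa, C1qb and C1qc, with 5 macrophage and 6 nonclassical monocyte markers, 316 KO and 818 WT cells), which had 74.6 CPM in KO and 689 CPM in WT, 9.25-fold lower (7.71 to 11.2). After thinning, 5.33% of KO and 26.6% of WT cells in it had a Ccl5 UMI (unthinned 13.9% and 46.4%), and the free RNA estimate was 9.0% of the KO and 4.997% of the WT UMIs. This cluster held different cells in the libraries. At resolution 2, 210 of its KO and 99 of its WT cells were macrophage-like, led by C1q genes with Cd5l and Clec4f, and 98 of its KO and 716 of its WT cells were in a cluster named classical monocyte-like and led by Cfb and Cxcl9. Ccl5 was lower in KO in each. The macrophage-like cells had 75.1 CPM in KO and 1236 CPM in WT (16.5-fold; ratio 0.0608, 0.0482 to 0.0758). These were 91 KO and 625 WT UMIs, and their spread over cells, which the interval does not count, was not examined. The Cfb-led cells had 72.6 CPM in KO and 613 CPM in WT (8.44-fold; ratio 0.118, 0.0797 to 0.1696). The Cfb-led cells held 24.6% of the KO and 77.8% of the WT Ccl5 UMIs of the cluster. Nonclassical monocyte-like cells (cluster 12) had 36.6 CPM in KO and 171 CPM in WT, 4.68-fold lower. Classical ones (cluster 8) had 34.8 CPM in KO and 59.9 CPM in WT, 1.72-fold lower. Of the classical monocyte UMIs, 19.9% in KO and 57.4% in WT were put down to free RNA. Cluster 10 stood highest of these clusters in both libraries, and the classical and nonclassical monocyte-like cells did not differ beyond counting error in KO. In monocyte-macrophage-like cells 3 of the 7 other CC chemokines with enough UMIs were also at least 2-fold lower in KO, against 4.56% of all genes, and none were when a minimum of 100 UMIs was set. Ccl2, which draws monocytes, had 9 UMIs in KO and 74 in WT, Ccl12 had 0 in KO and 37 in WT, and Ccl24 had 11 in KO and 40 in WT. Of 10 listed regulators of effector chemokine genes 9 had enough UMIs in these cells, and 1 of them, Irf1, was at least 2-fold lower in KO, with 117 CPM in KO and 354 CPM in WT. The median log2 ratio of the 9 was -0.23.

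Neutrophils and basophils also carried Ccl3 and Ccl4, and in neutrophils neither gene differed between the libraries beyond counting error. Neutrophil-like cells had 7.41 CPM of Ccl3 in KO and 8.68 CPM in WT (ratio 0.854, interval 0.462 to 1.47), and 27.2 CPM of Ccl4 in KO and 21.0 CPM in WT (ratio 1.29, 0.95 to 1.73). Both genes stood highest among neutrophils in cluster 22 (77 KO and 376 WT cells), led by the inflammatory genes Cxcl2 and Acod1, with 63.7 CPM of Ccl3 in KO and 95.6 CPM in WT and 149 CPM of Ccl4 in KO and 197 CPM in WT; both intervals included a ratio of 1. The Ccl5 of neutrophil-like cells, 25.7 CPM in KO and 77.5 CPM in WT, was 101% free RNA by the estimate in KO and 74.1% in WT. Basophil-mast-like cells, 29 in KO and 52 in WT, had 136 CPM of Ccl3 in KO and 341 CPM in WT (9 KO and 59 WT UMIs), 2.51-fold lower with a wide interval (1.23 to 5.75). These Ccl3 levels were above those of NK-ILC1-like cells, 19.1 CPM in KO and 96.5 CPM in WT. Their Ccl4 was 121 CPM in KO (8 UMIs) and 266 CPM in WT (46 UMIs), against 106 and 520 CPM in NK-ILC1-like cells. Among dendritic cells, the cDC2-like cluster 15 had 289 CPM of Ccl5 in KO and 399 CPM in WT, 1.38-fold lower (1.24 to 1.54). It included migratory DC-like cells told apart at resolution 2 (24 KO and 83 WT cells), which held 45.5% of its KO and 70.2% of its WT Ccl5 UMIs and had 2393 CPM in KO and 1711 CPM in WT (ratio 1.40, 1.20 to 1.62). The interval leaves out the spread between so few cells. After thinning, 7 of 21 KO (33.3%) and 29 of 72 WT (40.3%) migratory DC-like cells at resolution 2 had a Ccl5 UMI. Without them the cluster had 166 CPM in KO and 142 CPM in WT, with a ratio of 1.17 and an interval (0.981 to 1.40) that included 1. The lower KO level was thus not found inside either portion.

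Xcr1 marked cDC1-like cells, which the files held in equal number, 233 in KO and 233 in WT. These cells, led by Xcr1 itself with Clec9a, Cadm1 and Tlr3, held 95.9% of KO and 91.7% of WT Xcr1 UMIs, and their name rests on 8 of 8 listed markers, Xcr1 not having been used for clustering. The level was 364 CPM in KO (638 UMIs) and 478 CPM in WT (970 UMIs), 1.31-fold lower in KO (1.19 to 1.45). After thinning, 25.7% of KO and 35.6% of WT cDC1-like cells had an Xcr1 UMI, with intervals of 20.1% to 31.9% and 29.3% to 42.4% that overlap (unthinned 60.9% and 72.1%; median depths 5871 and 7544 UMIs). This log2 ratio of -0.39 was smaller than that of Xcl1 in all NK-ILC1-like cells (-2.54) and larger than that of Xcl1 weighted over their sub-clusters (-0.25). cDC2-like cells had 1.44 CPM in KO and 8.42 CPM in WT (3 KO and 15 WT UMIs), and no Xcr1 UMI was found in plasmacytoid dendritic (pDC-like) cells of either library. None of 12 genes of the cDC1 programme was at least 2-fold lower or higher in KO cDC1-like cells, and their median log2 ratio was -0.11, against -0.07 for all genes. Batf3, a factor needed for cDC1 development, had 171 CPM in KO and 203 CPM in WT, and Clec9a, a receptor for dead-cell actin, 443 CPM in KO and 483 CPM in WT. The widest were Itgae, the CD103 integrin gene, with 295 CPM in KO and 149 CPM in WT, and Id2, with 1143 CPM in KO and 1974 CPM in WT.

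**Figure D5:**
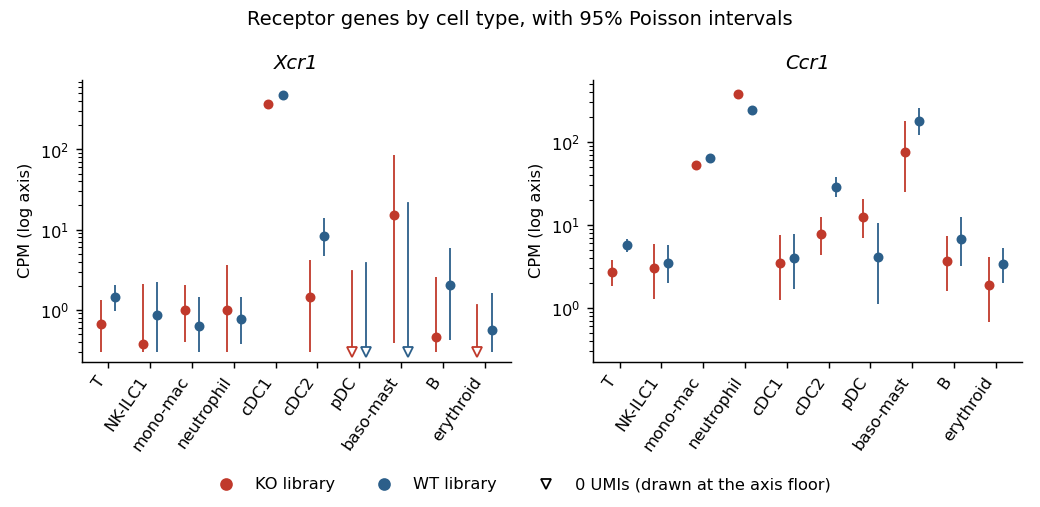
Level of the receptor genes Xcr1 and Ccr1 by cell type in CPM on a log axis, KO (red) left of WT (blue), with 95% Poisson intervals; open triangles mark 0 UMIs at the floor of the axis. Xcr1 stands highest in cDC1-like cells, and Ccr1 in neutrophil-like cells.

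Ccr1, the receptor gene for CCL3 and CCL5 named above, was highest in neutrophil-like cells, with 375 CPM in KO and 240 CPM in WT, a ratio of 1.56 (1.44 to 1.69). That ratio was not found inside the neutrophil clusters: cluster 1 had 475 CPM in KO and 471 CPM in WT, cluster 6 had 178 CPM in KO and 153 CPM in WT, and cluster 22 had 135 CPM in KO and 298 CPM in WT. Ccr3 had only 29 UMIs in all kept KO cells and 21 in WT cells.

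Many genes of a T- and NK-cell activation list were also lower in KO. In NK-ILC1-like cells 12 of 17 measured genes of an 18-gene activation list were at least 2-fold lower in KO and none was 2-fold higher, with a median log2 ratio of -1.47, against 8.09% of all genes and a median of -0.19. Csf2, a myeloid growth factor gene, had 2.24 CPM in KO and 20.2 CPM in WT, Ifng 10.1 CPM in KO and 50.1 CPM in WT, Egr3 2.24 CPM in KO and 19.3 CPM in WT, and the early activation marker Cd69 16.8 CPM in KO and 52.7 CPM in WT. In T-like cells 6 of 18 were at least 2-fold lower and none higher, with a median of -0.48, against 8.24% of all genes and a median of -0.08. These T-like values include the NK-marked and early response sub-clusters described above. Ifng had 10.9 CPM in KO and 76.5 CPM in WT, Il21, a helper T-cell cytokine gene, 0.333 CPM in KO and 12.5 CPM in WT, and Tnfrsf9 (4-1BB) 11.8 CPM in KO and 52.9 CPM in WT, with Nr4a2, Irf4 and Irf8 the others. Nr4a3, an early response gene, stood on the other side, below 2-fold: it had 20.3 CPM in KO and 11.5 CPM in WT T-like cells. Of 10 regulators known to act on effector chemokine genes, Bhlhe40 was at least 2-fold lower in both, with 34.7 CPM in KO and 139 CPM in WT T-like cells and 51.2 CPM in KO and 125 CPM in WT NK-ILC1-like cells. Zeb2, a factor of late effector cells, had 53.1 CPM in KO and 199 CPM in WT T-like cells but 1008 CPM in KO and 399 CPM in WT NK-ILC1-like cells, where Prdm1 was also higher in KO. Tbx21, the gene of T-bet, had 174 CPM in KO and 139 CPM in WT T-like cells.

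Across 42 pools of cells, genes of cytotoxic granules were among those whose levels were most like Ccl5 and Xcl1. Likeness is Pearson's r of log2(CPM + 1) over these pools of cluster and library, among 10730 genes, and is a description, since pools of 1 library share their depth and free RNA. For Xcl1 these were Gzmb (0.946), Cd160 (0.929), Ctsw (0.903), Nkg7 (0.878) and Ccdc136 (0.876), and for Ccl5 they were Gzmb (0.909), Ctsw (0.876), Itga2, Prf1 and Cldnd2. Gzmb encodes the protease granzyme B and Prf1 the pore-forming perforin. Ccl4 was most like Insl6 (0.728), Spry2 (0.716), Klra6, Ncr1 and Gzmb, and Ccl3 most like Eif1 (0.712), Spp1 (0.670), Ctsd, Lilrb4b and Gzmc. Ccl3 and Ccl4 had 0.790 with each other, and Ccl5 and Xcl1 had 0.875. Xcr1 was most like Snx22 (0.894), Gcsam (0.889), P3h2 (0.886), Chsy3 and Septin3, of which Gcsam, P3h2 and Septin3 also led the cDC1-like cluster.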

How the data were processed

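The authors deposited, for each of the 2 libraries, a matrix of raw UMI counts per gene and barcode with no normalization. Per the submitters' processing notes, the genome build was mm39 and the tools were Seurat 4.3.0 and Cell Ranger 6.0.1; the file headers name Cell Ranger 8.0.1. Barcodes with fewer than 200 genes (9283 KO, 1919 WT) or only more than 20% mitochondrial UMIs (75 KO, 111 WT) were left out. Scrublet in scanpy 1.11.5, at 0.8% expected doublets per 1000 barcodes, marked 11.6% of KO and 15.3% of WT barcodes, which were removed. Cells were clustered together without batch correction by Leiden (leidenalg 0.10.2) at resolution 1, with 2000 variable genes, 30 principal components and 15 neighbours, and gave 28 clusters, of which 5 stayed unnamed. The 5 genes, other CC chemokines and their receptors were not among the variable genes. A cluster was called X-like when at least 3 listed markers were at least 2-fold higher than elsewhere and seen in at least 10% of its cells; names were rebuilt here.

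CPM values, log2 ratios with a pseudocount of 1 CPM, exact Poisson intervals of levels, conditional binomial intervals of ratios and Clopper-Pearson intervals of shares were computed from summed counts, and the step was tested on simulated data. Shares of cells used cells thinned to 1000 UMIs, which left out 909 KO and 772 WT T-like and 243 KO and 210 WT NK-ILC1-like cells. A count of 0 allows 3 counts. Free RNA was estimated from S100a8 and S100a9 in B-like cells (97.7 UMIs per KO cell, 156 per WT cell). A gene list is given by its count at least 2-fold apart, with at least 20 UMIs summed. Named genes are the 5 chosen ones, genes of the lists and the 5 most alike of each. The members and lists were chosen with earlier results of these data known. Alternatives were scaling with edgeR 4.0.16 (TMM) and DESeq2 1.42.0, pseudocounts, filters, doublets kept, haemoglobin, thinning, free RNA, resolution 2 and sub-cluster weights. One gene of the receptor list is not reported here.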

Additional observations from a re-analysis of the deposited data

Results flagged for a closer look

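A difference between kinds of T-like cell that had at least 50 cells in each library was picked out where the interval of the KO over WT ratio lay above 1 in one sub-cluster and below 1 in others; the difference between sub-clusters was not tested. Ccl4 was higher in KO in sub-cluster 8 (led by Ffar2 and Ly6c1, 85 KO and 477 WT cells), with 43.1 CPM in KO and 7.30 CPM in WT (10 and 11 UMIs, log2 ratio 2.41), and lower in KO in 1 other sub-cluster. Xcl1 was higher in KO in the same sub-cluster 8, with 358 CPM in KO and 214 CPM in WT (log2 ratio 0.74). It was also higher in KO in the dividing sub-cluster 5 (164 KO and 672 WT cells), with 91.6 CPM in KO and 54.3 CPM in WT (log2 ratio 0.74). Xcl1 was lower in KO in 4 other sub-clusters.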

How the results depend on the processing

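All 9 ratios of the ligands in T-like and NK-ILC1-like cells and of Xcr1 in cDC1-like cells stayed below 0 on the log2 scale in each of 115 alternatives; of 283 alternatives for 26 other ratios 263 kept their sign. For Ccl3 in T-like cells (-3.66), the value was -1.37 with a pseudocount of 10, -3.60 with TMM or DESeq2 scaling, -3.65 with at least 500 genes and at most 10% mitochondrial UMIs, -3.54 with doublets kept, -3.57 without cells over 10% haemoglobin, -2.66 after thinning, -3.73 with free RNA subtracted, -2.25 at resolution 2, -2.42 with sub-clusters weighted by their mean mix and -2.37 without sub-clusters led by other cell types' genes, an alternative chosen after seeing the data. For Ccl4 in T-like cells (-3.16) it was -2.54 with a pseudocount of 10, -2.98 without cells over 10% haemoglobin, -2.28 at resolution 2, -1.45 with the mean mix and -1.63 without those sub-clusters. For Ccl5 in T-like cells (-1.35) it was -1.27 with TMM, -1.26 with DESeq2, -1.24 without haemoglobin-rich cells, -1.27 without haemoglobin UMIs, -1.46 thinned, -1.26 at resolution 2, -0.32 with the mean mix and -1.23 without those sub-clusters. For Xcl1 in T-like cells (-1.07) it was -0.86 without haemoglobin-rich cells, -0.35 at resolution 2, -0.86 with the mean mix and -0.43 without those sub-clusters. For Ccl3 in NK-ILC1-like cells (-2.28) it was -1.87 with a pseudocount of 10, -1.82 without haemoglobin-rich cells, -1.33 with the mean mix and -1.89 without those sub-clusters. For Ccl4 there (-2.29) it was -2.10 with TMM, -2.09 with DESeq2, -1.99 without haemoglobin-rich cells, -2.03 without haemoglobin UMIs, -2.08 thinned, -2.61 at resolution 2, -1.97 with the mean mix and -2.09 without those sub-clusters. For Ccl5 there (-1.15) it was -0.96 with TMM, -0.95 with DESeq2, -0.90 without haemoglobin-rich cells, -0.89 without haemoglobin UMIs, -1.0 thinned, -0.95 at resolution 2 and -0.95 without those sub-clusters. For Xcl1 there (-2.54) it was -2.35 with TMM, -2.34 with DESeq2, -2.25 without haemoglobin-rich cells, -2.28 without haemoglobin UMIs, -0.25 with the mean mix and -2.31 without those sub-clusters. Xcr1 in cDC1-like cells (-0.39) was -0.57 after thinning. The other 20 gave the other sign or 0: 4 for Xcr1 over all kept cells (up to 0.30), 5 for Ccl5 in pDC-like cells (up to 1.21), 2 for Ccl4 in neutrophil-like cells (down to -0.24), 2 each for Xcl1 in DC-like (up to 0.92) and erythroid-like cells (up to 5.69), 1 each for Ccl4 in erythroid-like (0.00) and Ccl5 in cDC1-like cells (0.01), and Ccl5 in DC-like cells without haemoglobin-rich cells (0.05) and in erythroid-like cells with the stricter filter (2.06) or free RNA subtracted (3.22). The mean mix covered only part of each class, 4058 KO and 2770 WT T-like cells and 1206 KO and 129 WT NK-ILC1-like cells. Where no cause is built into the alternative, the cause was not tested. No paired analysis was possible because each group has 1 library. Depth limits the KO values of Ccl3 most, since all kept KO cells held 103 UMIs of it.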
